A study of Mus musculus with 5 samples.

Results

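The 5 miRNAs described here, mmu-miR-223-3p, mmu-miR-155-5p, mmu-miR-146a-5p, mmu-miR-142-3p, and mmu-miR-150-5p (written below without the species prefix), were chosen by name as miRNAs of leukocytes and of inflammatory signaling, out of 1247 mouse miRNAs on the array. The samples were kidney RNA of male C57B/6 mice (20–25 g, age not given), taken after sham surgery or 6, 12, 24, and 48 h into the reperfusion that followed 30 min of warm ischemia of both kidneys (ischemia reperfusion injury, IRI). Sham mice had the same surgery without the clamp on the renal vessels. The sham sampling time was not given, and the methods state that mice were perfused with cold saline before the kidneys were taken. The methods name 8 mice per time point, but each of the 5 groups had 1 Agilent 1-color miRNA array, and whether RNA of several mice was pooled was not stated. No spread between mice was therefore measured, no test was possible, and the error given with each value is that of the scanner software, which covers the spots of 1 array only.

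miRNAs are short RNAs that pair with messenger RNAs mainly through a seed of bases near their 5′ end and lower the output of those messengers. miR-223 is made in the myeloid lineage and is abundant in neutrophils and monocytes, miR-142 is present across blood cells, and miR-150 is abundant in mature lymphocytes. miR-155 and miR-146a are induced in activated leukocytes, and in some other cells, by nuclear factor κB, where miR-155 restrains inhibitors of cytokine and immune signaling such as SOCS1 and SHIP1, and miR-146a restrains the adaptor proteins TRAF6 and IRAK1. The injured kidney recruits neutrophils and monocytes, so these miRNAs can enter the tissue with cells as well as be made in it. In an extract of whole tissue, fewer cells of a type and less RNA per cell cannot be told apart.

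Mature sequences of 4 of the 5 miRNAs were found in RefSeq (GRCm38.p6). They are shown, 5′ to 3′, because the seed (bases 2 to 8, in capitals) defines which messengers each can pair with. The probes pair with each from its 3′ end and cover part or all of the seed as well.
miR-223-3p: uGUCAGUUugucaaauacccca
miR-155-5p: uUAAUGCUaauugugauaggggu
miR-146a-5p: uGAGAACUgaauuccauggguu
miR-142-3p: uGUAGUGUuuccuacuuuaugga
No seed was shared among these 4. miR-223-3p lies at chrX:96242884-96242905 on the plus strand, within Mir223 and the longer transcript F630028O10Rik. miR-155-5p lies at chr16:84714143-84714165 on the plus strand, within Mir155 and its host gene Mir155hg. miR-146a-5p lies at chr11:43374435-43374456 on the minus strand, within Mir146. miR-142-3p, which RefSeq lists as miR-142a-3p, lies at chr11:87756903-87756925 on the plus strand, within Mir142, and Mir142b spans the same bases.

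One seed was shared with another miRNA of the array. miR-146b-5p, encoded on chromosome 19, carries the seed of miR-146a-5p and differs from it at 2 bases counted from the 5′ end, G18A and U21C, which are in capitals here.
miR-146a-5p: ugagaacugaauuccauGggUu
miR-146b-5p: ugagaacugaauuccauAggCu
The differing bases lie in the stretch that the probes cover, and miR-146b-5p was not detected on any array.

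Each member was read by 2 probes of 20 spots each, which pair with it from its 3′ end and differ by 1 base. These probes are shown, 5′ to 3′, because only the longer probe of a pair, which carries that base (in capitals), was detected in most cases.
miR-223-3p, 20 bases: tggggtatttgacaaactga
miR-223-3p, 21 bases: tggggtatttgacaaactgaC
miR-155-5p, 17 bases: acccctatcacaattag
miR-155-5p, 18 bases: acccctatcacaattagC
miR-146a-5p, 18 bases: aacccatggaattcagtt
miR-146a-5p, 19 bases: aacccatggaattcagttC
miR-142-3p, 22 bases: tccataaagtaggaaacactac
miR-142-3p, 23 bases: tccataaagtaggaaacactacA
A probe was called detected when its signal exceeded 3 times its error. The shorter probe of miR-223-3p was detected on 4 of 5 arrays, and the shorter probes of miR-155-5p, miR-146a-5p, and miR-142-3p on 0 of 5. The signal of a miRNA is the sum over its own detected probes, in scanner units with no scaling between arrays, and signals are compared between arrays for 1 miRNA at a time, apart from the summed signal of a list of kidney tubule miRNAs.

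The arrays as a whole moved with time, and every member is read against that movement. The median log2 ratio over sham of the 182 miRNAs detected on all 5 arrays was 0.16, 0.55, 1.03, and −0.23 at 6, 12, 24, and 48 h. Part of it at 12 and 24 h is a setting of the software, the effective feature size, set to 0.774 at 12 h, 0.776 at 24 h, and 0.6 on the remaining arrays. With 1 feature size the medians were 0.16, 0.18, 0.66, and −0.23. RNA spike-ins added in the laboratory were 1.05, 2.08, 2.13, and 2.06 times as bright as on the sham array, and detected miRNAs numbered 197 to 298. The sham and 6 h arrays shared slide 1, and the 12, 24, and 48 h arrays shared slide 2, so for sham against 12, 24, or 48 h the slide and the group cannot be told apart. The log2 ratios of the members over sham are therefore given unscaled, with 1 feature size, and after subtraction of the median of those 182 miRNAs, and those of other miRNAs unscaled and against the median.

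Of the 5 members, miR-223-3p and miR-155-5p were detected on all 5 arrays, miR-146a-5p on 4, miR-142-3p on 3, and miR-150-5p on 0. At 6 h, 1 of 3 members detected on both arrays, miR-223-3p, was at 2-fold or more over sham, beside 20.1% of the 209 miRNAs compared. At 12 h it was again miR-223-3p alone, 1 of 4, beside 34.6% of 208. At 24 h it was miR-155-5p alone, 1 of 3, beside 55% of 209, and at 48 h it was 0 of 3, beside 7.98% of 188. With 1 feature size the counts were 1, 1, 0, and 0, beside 20.1%, 27.4%, 34.4%, and 7.98% of all. Against the median, miR-223-3p was the member at 2-fold or more at 6 h (18.2% of all) and at 12 h (23.6%), and none was at 24 h (15.8%) or 48 h (11.2%). No member detected on both arrays was at 2-fold or more below sham at 6, 12, 24, or 48 h, beside 1.91%, 0.481%, 0%, and 8.51% of all unscaled and 2.87%, 2.4%, 0.957%, and 5.32% against the median. This count cannot include a member that fell under its limit, such as miR-146a-5p at 48 h, which read 3.50 beside 9.63 on the sham array. Detection in sham was lost by 1, 0, 1, and 1 members at 6, 12, 24, and 48 h, beside 4.57%, 5.02%, 4.57%, and 14.2% of the 219 miRNAs detected in sham. The unscaled median of the detected members was 0.30, 0.39, 0.67, and 0.72 at 6, 12, 24, and 48 h, beside 0.18, 0.62, 1.11, and −0.22 for all miRNAs compared. The members did not share 1 time course, and they are described singly.

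**Figure D1:**
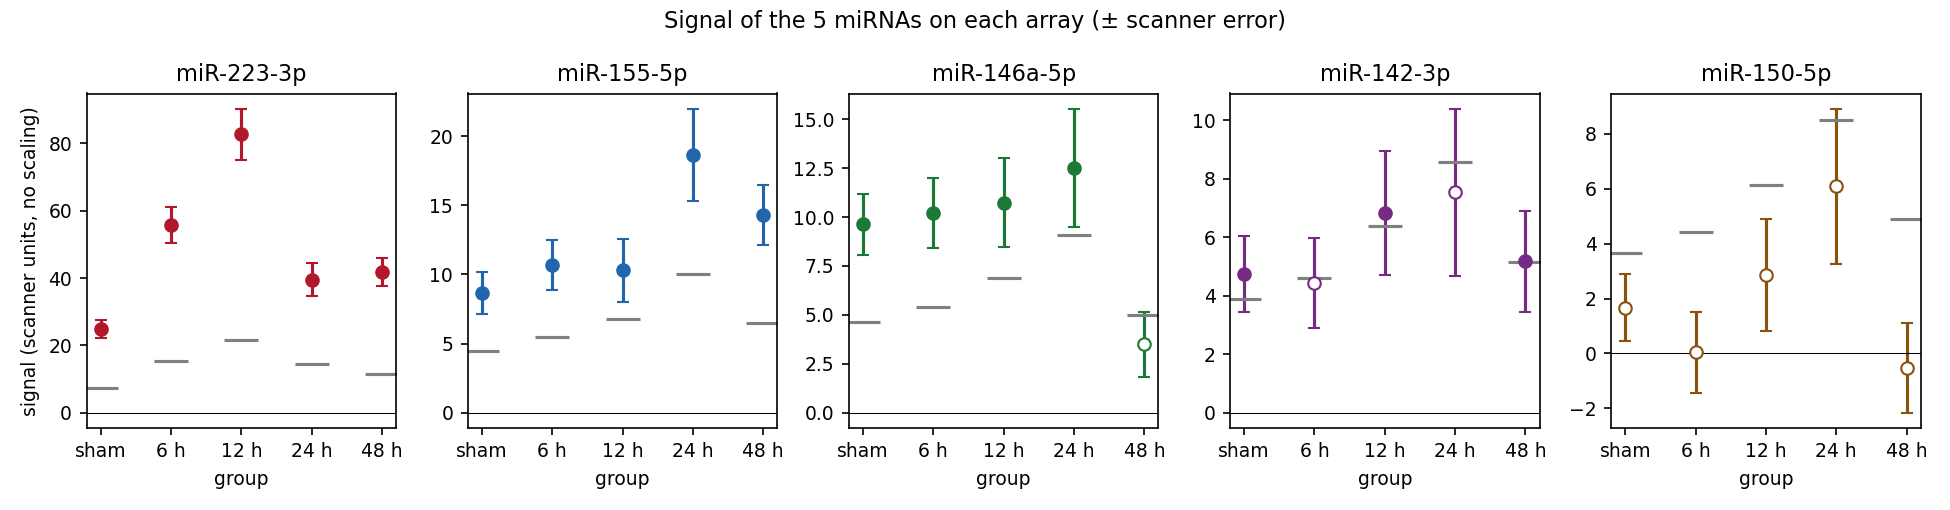
Signal of each miRNA (y axis, scanner units, no scaling, a separate range for each panel) on the 5 arrays (x axis, sham and hours after reperfusion), with bars for the scanner error. Filled points are sums of the detected probes, open points show the brighter probe where none was detected, and grey dashes mark 3 errors of the brighter probe. The signal of miR-223-3p was highest at 12 h (82.7), that of miR-155-5p at 24 h (18.7), and every point of miR-150-5p lay below its dash.

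miR-223-3p, the miRNA of neutrophils and other myeloid cells, was the member that stood above sham at 6 and 12 h on every scale tried. Its signal was 24.8 ± 2.73 (scanner error) on the sham array, 55.7 ± 5.34 at 6 h, and 82.7 ± 7.63 at 12 h, and then 39.5 ± 4.83 at 24 h and 41.7 ± 4.22 at 48 h. The 4 IRI arrays all lay above sham, and the 12 h array lay above the other 4. The unscaled log2 ratios over sham were 1.17 ± 0.21, 1.74 ± 0.21, 0.67 ± 0.24, and 0.75 ± 0.22 at 6, 12, 24, and 48 h. With 1 feature size they were 1.17, 1.37, 0.30, and 0.75. Against the median they were 1.01, 1.19, −0.36, and 0.98, so that on these 3 scales the sign depended on the scale at 24 h alone. Division by the spike-ins also turned the ratio at 48 h below 0, to −0.29.

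The within-slide comparison at 6 h and the values at 12 h placed miR-223-3p among the higher ratios without setting it apart from all others. Its ratio ranked 38 of 209 miRNAs at 6 h, 47 of 208 at 12 h, 165 of 209 at 24 h, and 23 of 188 at 48 h, counted from the highest. Against the median, the middle 50% of the 182 miRNAs lay between −0.16 and 0.34 at 6 h and between −0.39 and 0.76 at 12 h, below miR-223-3p in both cases. At 24 h this range was −0.32 to 0.56, and miR-223-3p, summed over its detected probes, lay under it. By its 21-base probe alone, which was detected on all arrays, it read −0.11 at 24 h, inside the range. At 48 h the range was −0.31 to 0.48, and miR-223-3p lay above it again.

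**Figure D2:**
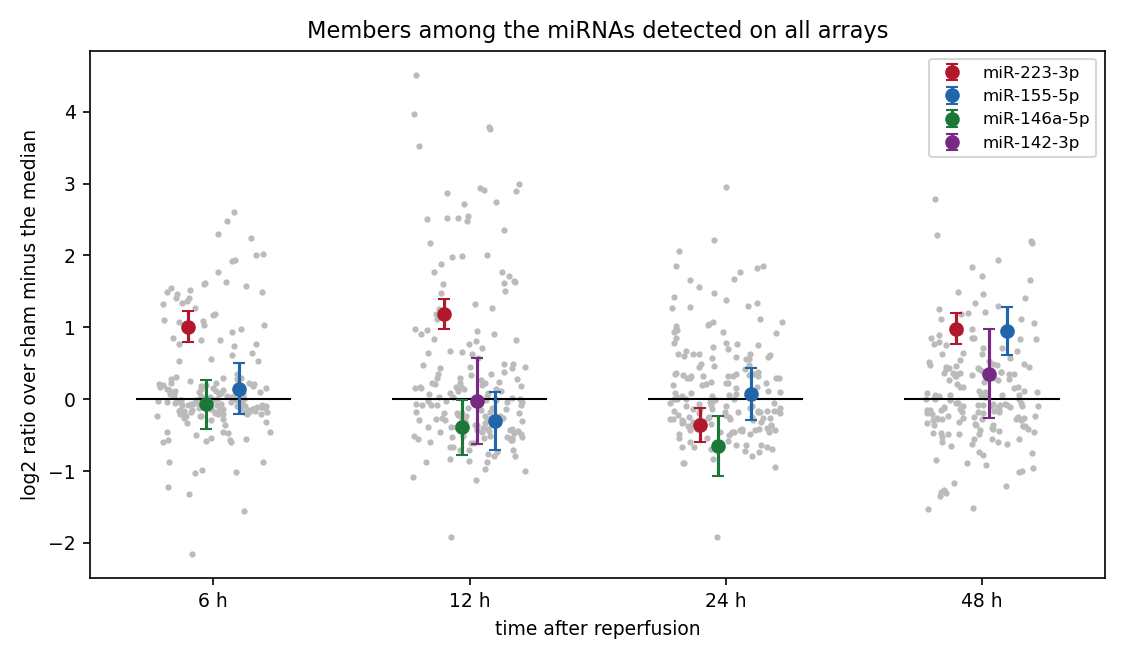
Log2 ratio over sham minus the median (y axis) against time after reperfusion (x axis) for the 182 miRNAs detected on all arrays (grey points, spread sideways at random), with the members detected on both arrays in color and bars for the scanner error. miR-223-3p lay at 1.01 and 1.19 at 6 and 12 h, at −0.36 at 24 h, and at 0.98 at 48 h, when miR-155-5p lay at 0.95.

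The fall of miR-223-3p between 12 and 24 h was a within-slide, within-scan comparison at nearly equal feature sizes. Its log2 ratio of 24 h over 12 h was −1.07 ± 0.22, whereas the median of the miRNAs detected on all arrays rose by 0.46. Counted from the lowest, this ratio ranked 23 of the 258 miRNAs detected on both arrays. Part of the fall came from the 20-base probe, whose signal of 13.3 ± 2.42 at 12 h dropped to 7.57 ± 2.87 at 24 h, under its limit of 8.61, and so left the sum. The 21-base probe alone gave 69.4 ± 7.23 at 12 h and 39.5 ± 4.83 at 24 h, a log2 ratio of −0.81 ± 0.23. By that probe the ratio over sham at 24 h was 0.93 ± 0.24 unscaled and −0.11 against the median. From 24 to 48 h, on the same slide but in another scan, the signal of miR-223-3p differed by 0.08 ± 0.23 on the log2 scale while the median moved by −1.24, which ranked it 2 of 190 from the highest. With 1 feature size the difference was 0.45 and the median −0.87. By the 21-base probe that difference was −0.19 ± 0.24.

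Both probes of miR-223-3p had the same order of sham, 6 h, and 12 h. The 20-base probe read 4.01, 7.07, and 13.3 and the 21-base probe 20.8, 48.7, and 69.4 on these arrays. At 48 h they read 7.16 and 34.6. In the spots themselves, before the software scaled them by feature size, the 21-base probe had medians over its 20 spots of 73.4, 173, 189, 108, and 124 on the sham, 6, 12, 24, and 48 h arrays. The lowest of the 20 spots at 6 h (157) lay above the highest on the sham array (95.8), and the highest spot at 24 h (122) lay below the lowest at 12 h (161). Spots of 1 array share 1 RNA extract, so this shows the precision of the reading and not the spread between mice.

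miR-223-3p was highest at 12 h unscaled, with 1 feature size, and against the median, but not on every scale. Its log2 ratio of 12 h over 6 h, across slides, was 0.57 ± 0.19 unscaled and 0.20 with 1 feature size. With the spike-ins it read 1.10 over sham at 6 h and 0.68 at 12 h. These were 0.71 and 0.52 with the median signal, 0.63 and 0.52 with quantile normalization, and 0.62 and 0.52 with the processed table. The share of all miRNAs that were highest at 12 h depended on the scale as well. Of the 182 miRNAs detected on all arrays, 35 (19.2%) had their highest unscaled signal at 12 h and 141 (77.5%) at 24 h. Against the median, 53 (29.1%) were highest at 12 h and 23 (12.6%) at 24 h. The nearest patterns, by the root mean square difference of the 4 unscaled log2 ratios over sham, were those of miR-3473b (0.39), miR-669p-3p (0.44), and miR-3102-5p (0.45), beside a median of 1.08 over 181 miRNAs. The ratios of miR-669p-3p were 1.26, 2.53, 1.06, and 0.75, highest at 12 h like those of miR-223-3p. This likeness rests on 4 ratios that share the sham array.

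miR-155-5p, which is induced in activated macrophages and lymphocytes, had another order in time, with its higher readings at 24 and 48 h. Its signal was 8.66 ± 1.49 on the sham array, 10.7 ± 1.82 at 6 h, and 10.3 ± 2.27 at 12 h, and then 18.7 ± 3.34 at 24 h and 14.3 ± 2.17 at 48 h. The first 3 arrays lay within their errors of each other, and the 24 and 48 h arrays read higher, although the error at 48 h overlapped those at 6 and 12 h. The unscaled log2 ratios over sham were 0.30 ± 0.35, 0.25 ± 0.40, 1.11 ± 0.36, and 0.72 ± 0.33 at 6, 12, 24, and 48 h. With 1 feature size they were 0.30, −0.12, 0.74, and 0.72. Against the median they were 0.15, −0.30, 0.07, and 0.95, so that it differed from the median by less than its error at 24 h and by more than its error at 48 h.

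By rank among all miRNAs compared, miR-155-5p stood high at 48 h and near the middle at 24 h, where its unscaled signal was highest. It ranked 80 of 209 from the highest at 6 h, 153 of 208 at 12 h, 105 of 209 at 24 h, and 24 of 188 at 48 h. On the second slide its log2 ratio was 0.86 ± 0.41 for 24 h over 12 h, when the median rose by 0.46, and −0.38 ± 0.34 for 48 h over 24 h, when the median moved by −1.24. With 1 feature size the latter was −0.014 and the median −0.87. For 48 h over 12 h it was 0.47 ± 0.39 against a median of −0.88, which ranked it 4 of 192 from the highest, and with 1 feature size it was 0.84 against −0.51. Its 18-base probe had spot medians of 30.0, 37.7, 28.6, 50.3, and 51.0 on the sham, 6, 12, 24, and 48 h arrays. The lowest spots at 24 h (44.7) and 48 h (41.2) lay above the highest at 12 h (38.0), whereas the highest spot at 6 h (45.1) lay above both.

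**Figure D3:**
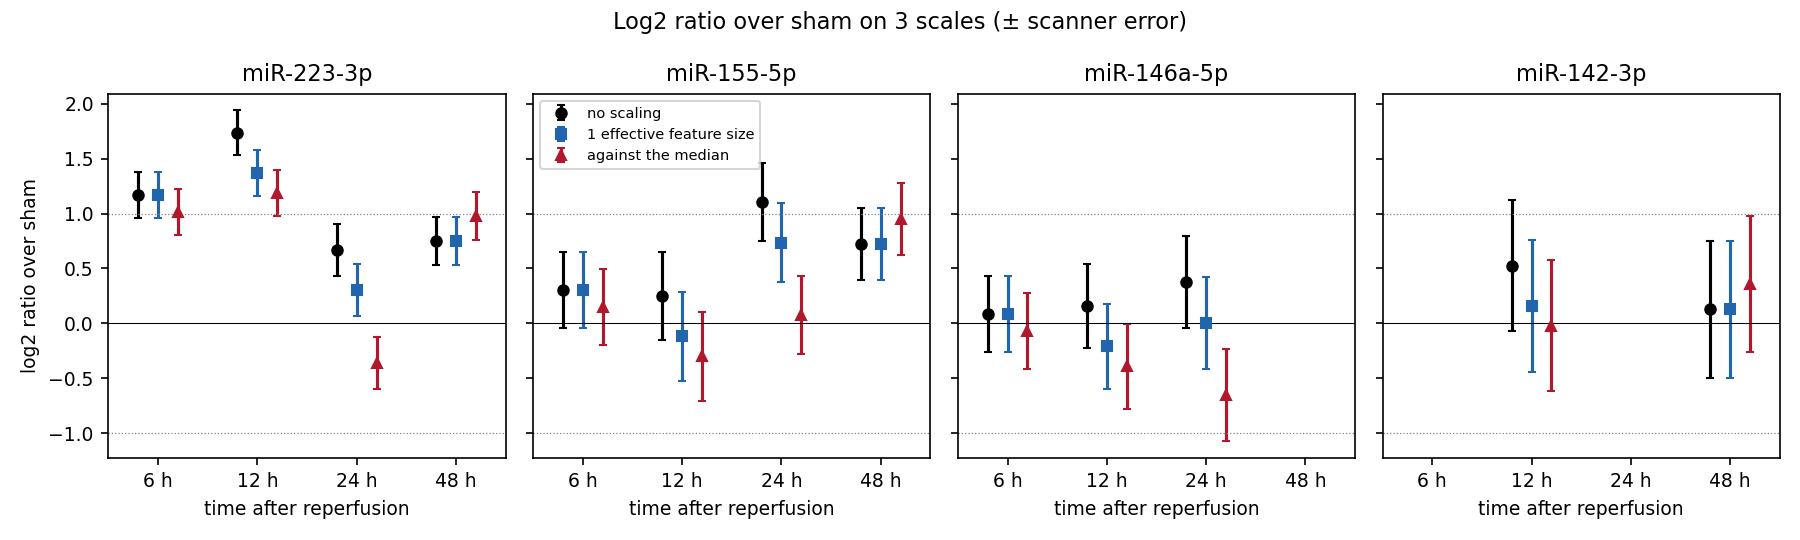
Log2 ratio over sham (y axis) against time after reperfusion (x axis) for the 4 members with a detected signal, unscaled, with 1 effective feature size, and against the median of the 182 miRNAs detected on all arrays, with bars for the scanner error and dotted lines at 2-fold. The 3 scales parted most at 24 h, where miR-223-3p read 0.67, 0.30, and −0.36 and miR-155-5p read 1.11, 0.74, and 0.07.

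The deposited total gene signal of miR-155-5p was larger than the signal of its own probes on every array, at 62.5, 68.1, 69.3, 113, and 47.2 on the sham, 6, 12, 24, and 48 h arrays. This was more than its 2 probes held together. At 48 h the sign depended on this choice, since the column gave a log2 ratio over sham of −0.41 and the own probe 0.72. For miR-223-3p the columns parted at 24 h alone, with 65.5 in place of 39.5, and for miR-146a-5p and miR-142-3p they were equal wherever these were detected. The patterns nearest to miR-155-5p were those of miR-20a-5p (0.16), miR-1949 (0.17), and miR-199a-3p (0.21), beside a median of 0.73 over 181 miRNAs. The scanner error of each miR-155-5p ratio was larger than these differences.

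miR-146a-5p, the feedback inhibitor of Toll-like receptor signaling, had unscaled signals within their errors of sham up to 24 h and was not detected at 48 h. Its signal was 9.63 ± 1.54 on the sham array, 10.2 ± 1.80 at 6 h, 10.7 ± 2.29 at 12 h, and 12.5 ± 3.03 at 24 h. At 48 h its 19-base probe read 3.50 ± 1.67, below its limit of 5.01. The first 4 arrays overlapped within their errors, and the 48 h array lay below all 4. The unscaled log2 ratios were 0.09 ± 0.34, 0.16 ± 0.38, and 0.38 ± 0.42 at 6, 12, and 24 h, none larger than its error. Against the median they were −0.07, −0.39, and −0.65, and with 1 feature size they were 0.09, −0.21, and 0.0069. Other scalings lowered them further, to −1.06 at 12 h and −0.79 at 24 h with the median signal, −0.90 and −0.71 with the spike-ins, and −1.86 at both times with quantile normalization. The sign was above 0 in 3 of 12 settings at 12 h and 5 of 12 at 24 h. Sham over the limit at 48 h was at least 1.92-fold, and these 2 arrays had the same feature size. It was 1 of 31 miRNAs that were detected on the sham array and not at 48 h. Its ratio at 24 h against the median ranked 195 of 209 from the highest.

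In the spots, the 19-base probe of miR-146a-5p had medians of 34.8, 36.4, 29.9, and 33.7 on the sham, 6, 12, and 24 h arrays and 13.2 at 48 h. The highest spot at 48 h (19.1) lay below the lowest on the sham array (25.5). Probes for no known RNA, the 7 negative controls, had medians of 7.08 to 16.1 on the 48 h array, so the 48 h reading of miR-146a-5p lay within the range of the negative controls. miR-146a-5p and miR-155-5p are both targets of nuclear factor κB, and at 48 h, where the spots of miR-155-5p had a median of 51.0, their unscaled readings relative to sham went opposite ways. With the spike-ins (−0.32) or the deposited total gene signal (−0.41), miR-155-5p also lay below sham. The difference between both miRNAs was not tested.

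miR-142-3p, which is present across blood cells, was at the edge of detection throughout. Its 23-base probe read 4.74 ± 1.30 on the sham array, 6.83 ± 2.13 at 12 h, and 5.17 ± 1.71 at 48 h, each just above 3 errors. At 6 h it read 4.44 ± 1.54 against a limit of 4.61 and at 24 h 7.53 ± 2.86 against 8.59, and so was not detected there. All 5 readings overlapped within their errors. The unscaled log2 ratio was 0.53 ± 0.60 at 12 h and 0.13 ± 0.62 at 48 h, −0.02 and 0.36 against the median, and 0.16 and 0.13 with 1 feature size. Its spot medians of 17.0, 15.2, 19.0, 19.9, and 17.8 on the sham, 6, 12, 24, and 48 h arrays lay above the highest negative control on the same array (10.4, 11.4, 9.52, 9.70, and 16.1). A difference between these arrays was not detectable at this signal.

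miR-150-5p, abundant in mature lymphocytes, was not detected on any of the 5 arrays. Its 15-base probe read −0.48, −1.45, 1.10, 4.84, and −0.55 on the sham, 6, 12, 24, and 48 h arrays, and its 16-base probe read 1.66, 0.04, 2.86, 6.08, and −0.52. The highest of these, 6.08 ± 2.83 at 24 h, lay under its limit of 8.49. The spots of the 16-base probe at 24 h had a median of 15.0 (lowest 7.31, highest 24.3), above the negative controls of that array (2.16 to 9.70), whereas its medians at 6 h (−0.30) and 48 h (−1.62) lay below those controls. No fold was given, since sham and 24 h were both under the limit.

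**Figure D4:**
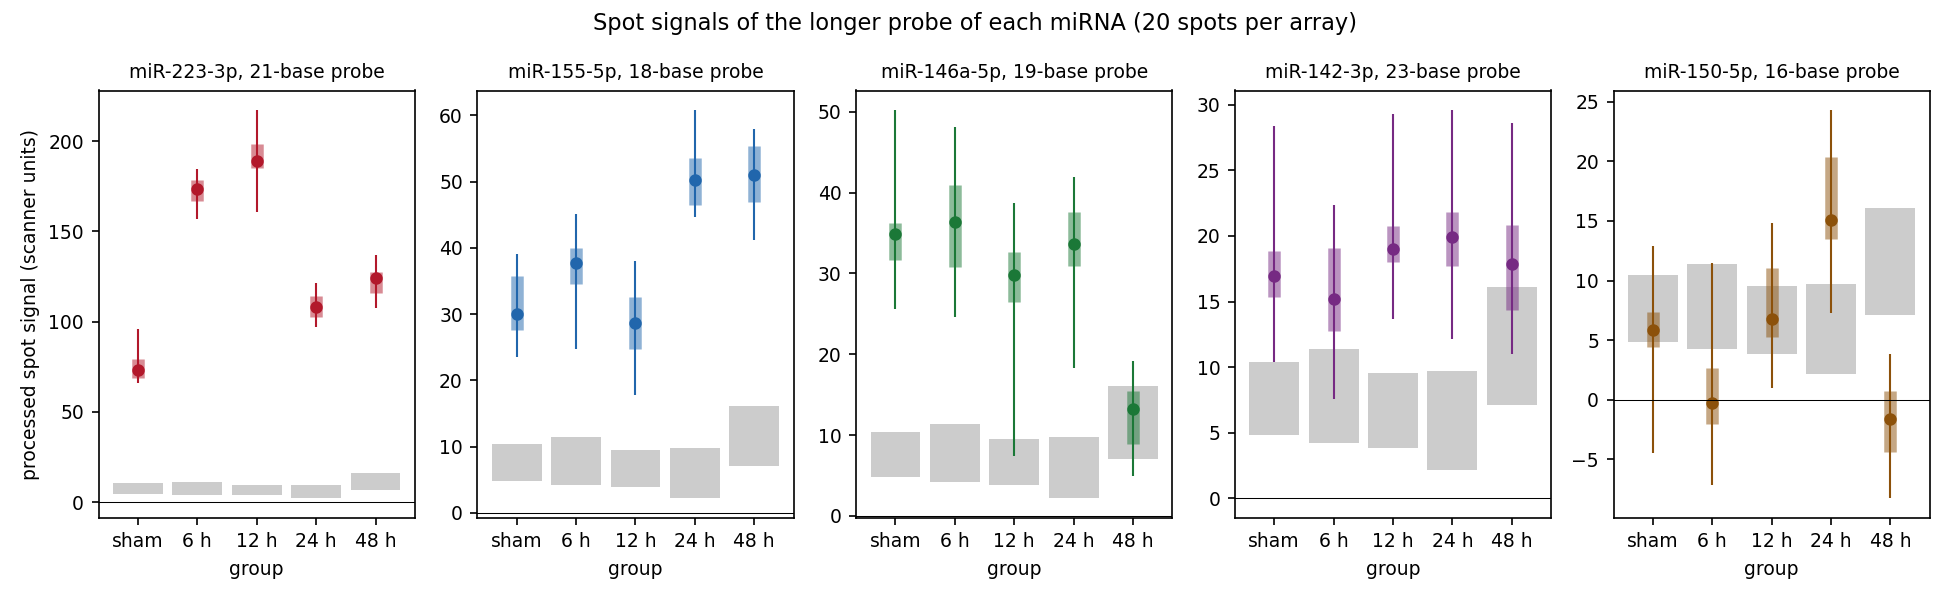
Processed signal of the 20 spots (y axis, scanner units before feature-size scaling, a separate range for each panel) of the longer probe of each member on the sham, 6, 12, 24, and 48 h arrays (x axis). Points are medians, thick bars the middle 50%, thin lines the lowest and highest spot, and grey boxes the range of the medians of 7 negative-control probes. The spots of miR-223-3p lay far above the controls on every array, those of miR-146a-5p fell into their range at 48 h (median 13.2), and the median of miR-150-5p lay above them at 24 h alone (15.0).

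The other strands of the 5 hairpins and both strands of miR-146b were read as companions, and 0 of these 7 miRNAs was detected on any array. Their sequences share no seed with the 4 members whose sequences were found, except that of miR-146b-5p. The highest reading of any companion probe was 0.71 of its own error.

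Of 16 other miRNAs of leukocytes or inflammatory signaling, 11 were detected on all arrays, 13 on at least 1, and miR-9-5p, miR-147-3p, and miR-511-3p on none. Unscaled, 0, 3, 8, and 1 of these 11 were at 2-fold or more over sham at 6, 12, 24, and 48 h, beside 20.1%, 34.6%, 55%, and 7.98% of all miRNAs compared. Such counts cannot include miR-132-3p, which had no detected probe on the sham array and so no ratio. It read 10.6 ± 1.82, 14.8, 20.2, and 7.45 at 6, 12, 24, and 48 h, where the median probe limit on the sham array was 3.61. miR-511-5p, detected at 24 h alone (5.27 ± 1.48), is left out as well. Against the median the counts were 0, 2, 2, and 1, beside 18.2%, 23.6%, 15.8%, and 11.2%, and the names were miR-21a-5p and miR-222-3p, with miR-21a-5p alone at 48 h. For miR-222-3p, 1 probe was detected on the sham array (3.99 ± 1.27) and 2 at 12 and 24 h. Its deposited total gene signal went the other way, at 31.4 on the sham array, 17.7 at 12 h, and 26.0 at 24 h. At 2-fold or more below sham, unscaled, were 3 of the 11 at 48 h (miR-181a-5p, miR-181b-5p, and miR-212-3p), beside 8.51%, and none earlier. Against the median these were let-7e-5p at 12 h, beside 2.4%, and miR-181b-5p at 48 h, beside 5.32%. miR-181a-5p and miR-181b-5p each had 2 detected probes on the sham array and 1 at 48 h. Their deposited total gene signals went the other way, from 21.3 and 21.0 on the sham array to 172 and 180 at 48 h. miR-212-3p had 2 detected probes on both arrays, and its deposited signal equaled that of its own probes. miR-21a-5p, which is induced in injured epithelium as well as in macrophages, read 831 ± 73.1 on the sham array and 1577, 3976, 7885, and 4898 at 6, 12, 24, and 48 h, with log2 ratios of 0.92, 2.26, 3.25, and 2.56. Against the median these were 0.77, 1.71, 2.21, and 2.79, so it was highest at 24 h unscaled and at 48 h against the median. The list's unscaled median was −0.02, 0.66, 1.27, and −0.17, near the 0.18, 0.62, 1.11, and −0.22 of all miRNAs compared.

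Markers of other cells moved on the same arrays. miR-451a, the miRNA of red blood cells, read 159 ± 11.9, 500.3 ± 37.0, 234 ± 17.4, 538 ± 39.7, and 105 ± 8.06 on the sham, 6, 12, 24, and 48 h arrays, with log2 ratios over sham of 1.65, 0.55, 1.75, and −0.60, and of 1.49, 0.0035, 0.72, and −0.37 against the median. It was the only 1 of 3 red blood cell miRNAs on the array that was detected, as miR-144-3p and miR-144-5p were not. At 6 h miR-451a and miR-223-3p were both above 2-fold. From 12 to 24 h miR-451a rose and miR-223-3p fell, and at 48 h miR-451a lay below sham and miR-223-3p above. The part of red blood cell content in the result at 6 h was not tested. Of 7 kidney tubule miRNAs, 6 were detected on all arrays, with a summed signal of 2068 to 4414 and a median log2 ratio of 0.11, 0.39, 0.75, and −0.41 unscaled and −0.045, −0.16, −0.28, and −0.18 against the median, and miR-215-5p was not detected. Of these, miR-204-5p differed from the list, with 2.69 at 24 h and 0.19 at 48 h unscaled and 1.65 and 0.42 against the median. The other detected tubule miRNAs lay below the median at both times. The endothelial miR-126-3p had ratios of 0.09, 0.12, 0.63, and −0.50 unscaled and −0.065, −0.43, −0.40, and −0.27 against the median, and miR-126-5p was detected on the sham array alone. The members did not move together at 48 h. miR-146a-5p read 3.50 ± 1.67, under its limit, beside 9.63 on the sham array. miR-142-3p lay within its error of sham (0.13 ± 0.62), and miR-150-5p was not detected. At 48 h miR-223-3p and miR-155-5p lay above sham, whereas miR-126-3p, miR-451a, and the median of the tubule miRNAs lay below it unscaled. With the spike-ins miR-223-3p and miR-155-5p lay below sham as well. The part of this shift of the other miRNAs in the values against the median was not tested.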

How the data were processed

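Kidney miRNAs were measured on Agilent mouse miRNA arrays (Release 19), 1 per group. The authors deposited intensity values written by Agilent Feature Extraction 10.7.1.1, background-subtracted and not normalized between arrays, and a table of processed log2 values whose scale, centring, and making were not given in the sources used here. It served as an alternative only. Own-probe signals were summed over probes above 3 errors, and errors were added in quadrature. Counts used 2-fold or more in signal. Control spots were left out. The members and lists were chosen with earlier results of these data known. Named were the members, their companion strands, a list of 16 related miRNAs, markers of other cells, and the 3 nearest patterns. Sequences came from RefSeq (GRCm38.p6) and the array design. The 13 alternatives covered scaling, summary, background, and detection. Tools were R 4.3.3 with limma 3.58.1 and Python 3.11.15 with pandas 2.3.3, numpy 2.4.6, and matplotlib 3.10.9. The computation was tested on simulated data of 1247 miRNAs, and 7 of 7 checks were recovered. No spot was saturated. Precision is limited by there being 1 array per group.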

Additional observations from a re-analysis of the deposited data

Results flagged for a closer look

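Both probes of miR-150-5p, which gave no detected signal and entered no comparison that used a detection level, had more spots called positive and significant by the software at 24 h than on the sham array. The 15-base probe had 20 of 20 such spots at 24 h and 2 on the sham array, and the 16-base probe had 19 of 20 at 24 h and 15 on the sham array. At 6 h the numbers were 0 and 3, at 12 h they were 8 and 14, and at 48 h they were 1 and 0. This call is a weak one, since 31.2% of the negative-control spots at 24 h and 74.5% on the sham array also had it. Over the spots of all miRNAs not detected on the array, the share was 14.1% at 24 h and 9.96% on the sham array. The median spot was 13.4 for the 15-base probe and 15.0 for the 16-base probe at 24 h, beside 2.16 to 9.70 for the 7 negative-control probes. The difference was not tested, and with 1 array no spread between animals was measured.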

How the results depend on the processing

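With 13 alternative settings beside the unscaled values, the log2 ratio of miR-223-3p stayed above 0 at 6 h (0.55 to 1.23) and at 12 h (0.52 to 1.99), and its 24 h over 12 h ratio, a comparison added after the data were seen, stayed below 0 (−1.59 to −0.34). The latter was −1.55 against the median ratios over sham, −1.59 with the 75th percentile, −0.34 with the deposited total gene signal, and −0.81 with the probes detected on all arrays or with no detection filter. The number of members at 2-fold or more, 1 at 6, 12, and 24 h, became 0 at all 3 times with the median signal, quantile normalization, normexp, or the processed table. It also became 0 at 6 and 24 h with the 75th percentile, at 12 and 24 h with the spike-ins, and at 24 h with 1 feature size, the median ratio, or mean spot signals. It became 2 at 12 and 24 h with no detection filter, where the undetected miR-150-5p was the member added. At 48 h it went from 0 to 1 with the median signal and 2 with the processed table. The members' median at 6 h (0.30) moved to −0.15 with the median signal, −0.28 with quantile normalization, 0.77 with the probes detected on all arrays, and −0.32 with the processed table. At 12 h (0.39) it moved to −0.16 against the median ratio, −0.83 with the median signal, −0.24 with the 75th percentile, −0.67 with the spike-ins, −1.77 with quantile normalization, 0.99 with the probes detected on all arrays, 1.99 at 5 errors, and −3.25 with the processed table. At 24 h (0.67) it moved to 0.30 with 1 feature size, 0.28 with mean spot signals, and 0.087 with normexp, and turned negative against the median ratio (−0.36), with the median signal (−0.50), the 75th percentile (−0.49), the spike-ins (−0.42), quantile normalization (−1.02), and the processed table (−2.00). At 48 h (0.72) it moved to −0.32 with the spike-ins, 0.13 with the total gene signal, 0.31 with normexp, and 0.26 with no detection filter. miR-223-3p at 24 h turned to −0.36 against the median ratio, −0.50 with the median signal, −0.49 with the 75th percentile, −0.42 with the spike-ins, −0.67 with quantile normalization, −0.34 with normexp, and −0.75 with the processed table. miR-155-5p at 24 h turned to −0.065 with the median signal, −0.053 with the 75th percentile, −1.02 with quantile normalization, and −2.00 with the processed table. At 48 h the spike-ins turned miR-223-3p to −0.29 and miR-155-5p to −0.32, and the total gene signal turned miR-155-5p to −0.41. miR-146a-5p ranged from −0.57 to 0.13 at 6 h and, with the processed table lowest at −3.59, up to 0.16 at 12 h and 0.38 at 24 h. The cause of these changes was not tested, apart from the settings that drop probes by construction. Signal over background limits miR-142-3p and miR-150-5p, whose readings lay near or under 3 errors, and the limit itself rose from a median of 3.61 on the sham array to 8.28 at 24 h. No paired analysis was possible because no group held more than 1 array.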
